A study of Rattus norvegicus with 6 samples.

Results

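The miR-10 and miR-196 families are microRNAs (miRNAs) whose genes lie inside the HOX clusters. They were followed here in rat lung as the 6 names of the deposited table that read rno-miR-10a, rno-miR-10b, rno-miR-196a, rno-miR-196b or rno-miR-196c, with any arm, out of 693 listed names. These were miR-10a-5p, miR-10a-3p, miR-10b-5p, miR-10b-3p, miR-196a-5p and miR-196b-5p. The names were chosen by family and not by a cut on their values, though earlier results of these data were known at the choice. Small RNA was sequenced from lung tissue of male Sprague-Dawley rats of 7 to 8 weeks, with 1 library per sample. In the ischemia reperfusion (IR) group (n = 3) the left hilum was clamped for 45 min under urethane and ventilation and blood flow was then restored. In the sham group (n = 3, labelled as control) the chest was opened in the same way without clamping. No genetic change or drug treatment separates the groups, and the sources used here do not give how long the lung was reperfused. The study speaks of biological replicates, whereas the labels do not say that each sample came from its own animal, and p-values measure the spread between these samples.

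A miRNA is cut from a hairpin precursor, whose left and right arms give a 5p and a 3p product, and its bases 2 to 8, the seed, pair with target mRNAs and lower their output. HOX genes encode transcription factors that set position along the body axis, and the miR-10 and miR-196 genes were retained between them through vertebrate evolution. Several HOX mRNAs are known targets of both families, with Hoxb8 a well-studied target of miR-196. miR-10 is also known from endothelial cells, where it dampens inflammatory adhesion molecules and supports vessel growth, and miR-196 from posterior tissues of the embryo and hindlimb.

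The genes lie on 4 chromosomes, 1 HOX cluster each. In the RefSeq annotation of rat assembly GRCr8, Mir10a (chr10:81779709-81779818, plus strand) lies between Hoxb5 and Hoxb4, outside any other listed gene. Mir10b (chr3:80035859-80035967, plus strand) lies within the span of Hoxd4, where exon and intron were not told apart here. Mir196a (chr7:135988876-135988985, plus strand) lies between Hoxc10 and Hoxc9, and Mir196b (chr4:82661101-82661185, minus strand) between Hoxa9 and Hoxa10. Mir196c (chr10:81727551-81727630, plus strand) shares the Hoxb cluster with Mir10a, between Hoxb13 and Hoxb9, and its miR-196c was not analysed here. The sources used here do not name the build on which the reads were counted, and these positions describe the genes only.

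The mature sequences are shown because members of a family differ by so little that reads of one could be counted under the other. All 6 names matched the RefSeq table of GRCr8. The seed, bases 2 to 8 from the 5′ end, is in capitals.
miR-10a-5p: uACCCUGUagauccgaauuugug
miR-10b-5p: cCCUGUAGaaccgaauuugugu
miR-10a-3p: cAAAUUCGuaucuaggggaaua
miR-10b-3p: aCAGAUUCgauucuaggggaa
miR-196a-5p: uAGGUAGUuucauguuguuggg
miR-196b-5p: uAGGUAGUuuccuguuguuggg
miR-196c-5p: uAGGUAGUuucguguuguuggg
The 3 miR-196 products share the seed AGGUAGU, and each pair of them differs at position 12 alone, counted from the 5′ end. The differences are A12C from miR-196a-5p to miR-196b-5p and A12G from miR-196a-5p to miR-196c-5p. miR-10a-5p and miR-10b-5p, by contrast, do not share a seed as annotated in rat, since the listed miR-10b-5p begins 2 bases further into its hairpin.
Mir10b hairpin, listed miR-10b-5p in capitals: uauaCCCUGUAGAACCGAAUUUGUGU
Mir10b hairpin from the base that matches the start of miR-10a-5p, bases 2 to 8 in capitals: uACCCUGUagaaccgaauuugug
Read from that earlier base, the 23-nt stretch carries the miR-10a-5p seed ACCCUGU and differs from miR-10a-5p only by U12A. Over the 21 bases that the listed sequences have in common there is again 1 difference. The sources used here do not say how the counting treated reads that begin 2 bases before the listed start, or reads that match both names with 1 mismatch. The split of reads between miR-10a-5p and miR-10b-5p is therefore uncertain, and the values below are those of the names as deposited.

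The libraries held 7459979 to 10718899 listed miRNA reads in sham and 3775663 to 11248166 after IR, with IR replicate 2 the smallest. At these totals 3 reads, taken as the limit that a count of 0 allows, correspond to 0.267 to 0.795 reads per 1000000. Levels are given as counts per 1000000 reads after TMM normalization (CPM), a scaling in which most miRNAs are taken as unchanged. Values of different miRNAs are compared as reads without a length term, because the members are 21 to 23 nt long and each read covers a whole miRNA. How evenly different sequences entered the libraries was not tested, so ratios between miRNAs are ratios of reads and not of molecules. The lung markers were present, with the summed endothelial miR-126 names at 83200 to 111000 CPM and the epithelial miR-200 family at 13200 to 19600 CPM over the 6 libraries. The study does not state whether the reads carried molecular identifiers, and intervals from counts cover counting error only.

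miR-10a-5p made up nearly all of the signal of these families. It took 98.5% to 99.1% of the members' reads in a library and ranked 7 or 8 among all listed names in each of the 6 libraries. Its share of all miRNA reads was 2.06% to 2.90% in sham and 3.04% to 4.07% after IR. miR-10b-5p took 0.56% to 1.16% of the members' reads, and miR-10a-3p, the other arm of the miR-10a hairpin, 0.316% to 0.508%. The order of these lesser names was the same throughout, with miR-10b-5p above miR-10a-3p in 6 of 6 libraries. The other 3 names were near the limit of detection, with 59 reads of miR-196b-5p, 23 of miR-10b-3p and 3 of miR-196a-5p over all libraries. miR-196b-5p lay above miR-196a-5p in 6 of 6 libraries and above miR-10b-3p in 4 of 6, so the order of the latter pair was not distinct from their spread.

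**Figure D1:**
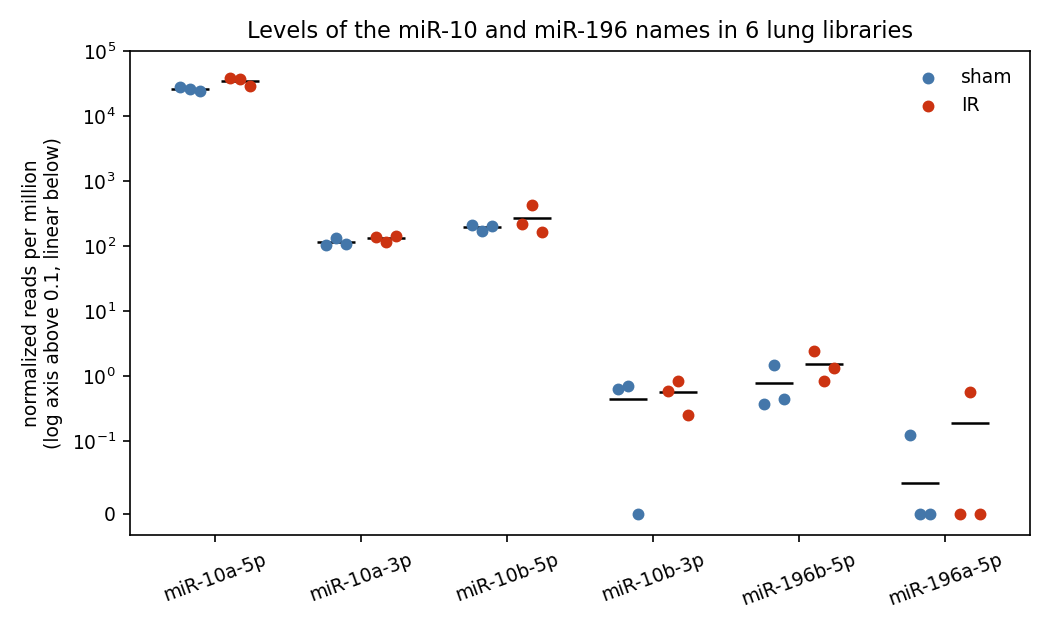
Normalized reads per 1000000 (vertical axis, logarithmic above 0.1 and linear below) of the 6 names in 3 sham (blue) and 3 IR (red) libraries, with the group mean as a black bar. miR-10a-5p lies at 23733 or more in every library, miR-10b-5p and miR-10a-3p lie between 103 and 431, and the remaining 3 names lie at 2.42 or less.

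The comparison of IR with sham asks whether clamping and reperfusion of the lung changed these miRNAs. Of the 6 names, 4 had enough reads for edgeR's quasi-likelihood test, which ran over 418 miRNAs with Benjamini-Hochberg adjustment. Shares over all tested miRNAs are shares of these 418 names, some of which had values identical to another name and were counted separately. Of the 4 tested members, 0 passed an adjusted p under 0.05, where 10.5% of all tested miRNAs did (7.89% as higher after IR and 2.63% as lower). An unadjusted p under 0.05 was found for 1 (miR-10a-5p), where 26.3% had one. DESeq2, limma-voom and limma-trend also called 0. The fitted log2 fold change was above 0 for all 4, with a median of 0.46. Over all tested miRNAs the median was -0.0088, and 48.8% lay above 0. The groups overlapped for miR-10a-3p, miR-10b-5p and miR-196b-5p, and miR-10b-5p was at -0.023 without IR replicate 2. miR-10a-5p and miR-10a-3p come from the same hairpin. The members miR-10b-3p and miR-196a-5p did not enter the test, and miR-196b-5p entered through 2 IR libraries and 1 sham library.

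rno-miR-10a-5p was at 27269, 25965 and 23733 CPM in the 3 sham libraries and at 38671, 36629 and 28774 CPM in the 3 IR libraries. Every IR library lay above every sham library, and the lowest IR library came close to the highest sham library. Such a separation was found for 34.0% of all tested miRNAs, 17.2% with IR as the higher group. The mean was 25655 ± 1788 CPM in sham and 34691 ± 5225 CPM in IR libraries (SD, n = 3 each), and the log2 fold change was 0.44 ± 0.15 (standard error). This is 1.35-fold, with a 95% interval of 1.06 to 1.72, with an adjusted p of 0.102 in edgeR's quasi-likelihood test (unadjusted 0.0200). The difference thus did not pass the test after adjustment, and changes above 1.72-fold lay outside the interval. The sham libraries agreed closely, with a coefficient of variation (SD over mean) of 6.97%, beside a median of 13.6% over the 168 tested miRNAs above 100 CPM. After IR it was 15.1%, beside a median of 11.7%.

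Summed levels of miRNAs taken as cell type markers were set beside these values. The epithelial, leukocyte and mesenchymal sums did not overlap between the groups, and the sums of the remaining lists did. The summed miR-200 family of epithelium was at 13200 to 16200 CPM in sham and 19100 to 19600 CPM after IR, with 0 of 9 tested names called. The leukocyte names miR-142, miR-223 and miR-150 were at 3200 to 4570 and 2260 to 2550 CPM, with 1 of 6 called, as lower. The mesenchymal names miR-199a and miR-214 were at 3220 to 3690 and 2330 to 2490 CPM, with 1 of 3 tested called, also lower. The endothelial names, at 88100 to 111000 and 83200 to 105000 CPM, overlapped between the groups, as did the smooth muscle names miR-143 and miR-145 at 134000 to 163000 and 141000 to 161000 CPM, with 0 of 3 and 0 of 4 called. The erythroid names were at 1230 to 4050 and 1490 to 2160 CPM, the striated muscle names at 139 to 173 and 147 to 198 CPM and the hepatocyte miR-122 at 0.63 to 6.61 and 5.42 to 9.51 CPM, with 0 of 4, 1 of 5 (as higher) and 0 of 1 tested names called. In each list 0 of the listed names had 0 reads in all libraries. Their part in the level of miR-10a-5p was not tested. In lung tissue, fewer cells of a type and less RNA per cell cannot be told apart.

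miR-10a-3p, the less abundant arm of the same hairpin, was at 103, 133 and 107 CPM in sham and at 138, 117 and 143 CPM after IR. The groups overlapped, since IR replicate 2 lay below sham replicate 2. Its log2 fold change was 0.22 (standard error 0.18, 95% interval -0.19 to 0.63, adjusted p = 0.467 in edgeR's quasi-likelihood test). Changes of more than 1.54-fold (the upper limit of the interval) in the direction of IR thus lay outside the interval.

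rno-miR-10b-5p, the HOXD counterpart of miR-10a-5p, was at 208, 171 and 201 CPM in sham and at 218, 431 and 165 CPM after IR. A single library set the IR mean apart: IR replicate 2 lay 1.97 times above the next highest library, whereas the other IR libraries bracketed the sham range. The means were 193 ± 19.7 and 272 ± 141 CPM (SD, n = 3 each), and the log2 fold change was 0.49 (standard error 0.33, 95% interval -0.27 to 1.24, adjusted p = 0.372 in edgeR's quasi-likelihood test). Without IR replicate 2 the log2 fold change was -0.023 (adjusted p = 0.955 from the same test). That library, which is also the smallest, was the highest of the 6 by at least 1.5-fold for 20 of the 418 tested miRNAs (4.78%), against 0 to 16 miRNAs for each of the others. The part of its depth in the value of miR-10b-5p was not tested.

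miR-196b-5p, from the HOXA cluster, had 3, 17 and 4 reads in the sham libraries and 16, 3 and 16 reads in the IR libraries. In CPM, which takes the different library totals into account, it was at 0.378, 1.51 and 0.448 in sham and at 2.42, 0.855 and 1.35 after IR. Sham replicate 2 lay above 2 of the IR libraries, so the groups overlapped. The means were 0.78 ± 0.63 (sham) and 1.54 ± 0.80 (IR; SD, n = 3 each), and the log2 fold change was 0.95 (standard error 0.62, 95% interval -0.49 to 2.39, adjusted p = 0.360 in edgeR's quasi-likelihood test). The interval runs from 0.713-fold to 5.23-fold and includes no change. With counting error alone, the ratio of its 35 reads after IR to its 24 reads in sham, each divided by the reads of the group, was 1.95 (95% exact Clopper-Pearson interval 1.13 to 3.42), which leaves out the spread between libraries. Without sham replicate 2 the log2 fold change was 1.93 (adjusted p = 0.0807), and without IR replicate 1 it was 0.46 (adjusted p = 0.792), both from edgeR's quasi-likelihood test. miR-196a-5p, from the HOXC cluster, had 1 read in sham replicate 1, 2 reads in IR replicate 2 and 0 reads in the other 4 libraries. The ratio of its reads after IR to those in sham, each divided by the reads of the group, was 2.67 with a 95% exact (Clopper-Pearson) interval of 0.139 to 158. miR-10b-3p had 5, 8 and 0 reads in sham and 4, 3 and 3 reads after IR, a ratio of 1.03 (95% exact interval 0.403 to 2.54). The 0 reads in sham replicate 3 allow up to 0.291 reads per 1000000. No direction can be read for either name.

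**Figure D2:**
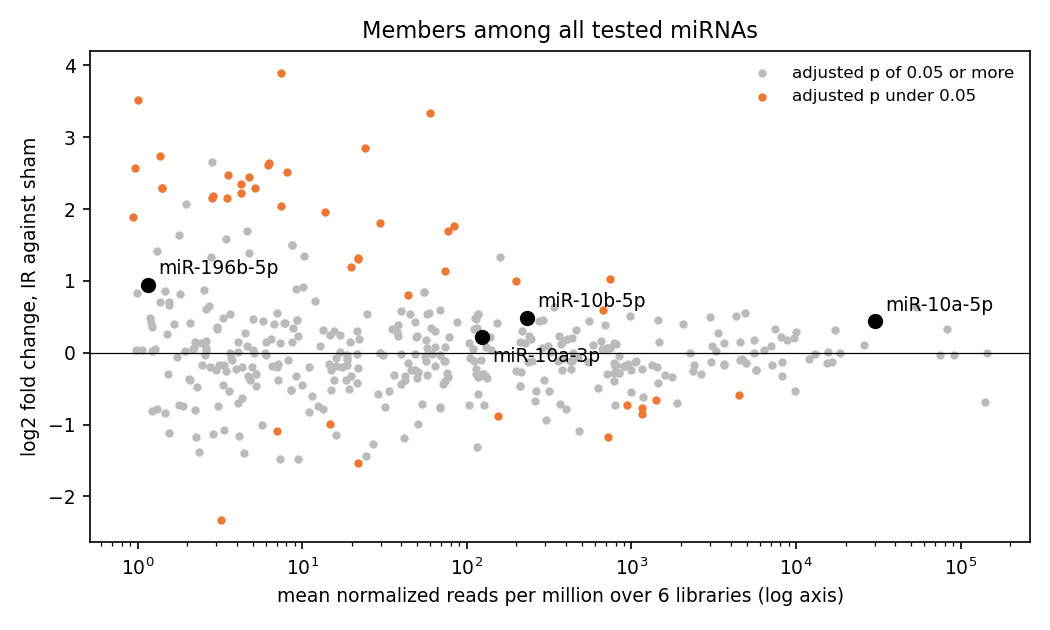
IR against sham, as log2 fold change (vertical axis), by mean normalized reads per 1000000 over the 6 libraries (horizontal axis, logarithmic) for the 418 tested miRNAs. Black points are the 4 tested members, which all lie above 0 within the grey cloud of miRNAs that were not called; orange points have an adjusted p under 0.05.

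Ratios within a library do not depend on the scaling and were compared by exact two-sided permutation tests over the 20 divisions of 6 libraries into 3 and 3, for which 0.1 is the smallest p. miR-10a-5p had 131, 152 and 118 times the reads of miR-10b-5p in the 3 sham libraries and 177, 84.9 and 174 times after IR. The IR libraries thus lay on both sides of the sham range, with IR replicate 2 lowest. The mean log2 ratio was 7.05 ± 0.18 (sham) and 7.11 ± 0.61 (IR; SD, n = 3 each), a difference of 0.054 (exact permutation test, p = 1). Without IR replicate 2 the difference was 0.40, where the test of 3 against 2 gave p = 0.2 (exact permutation test). The predominance in reads of the HOXB-cluster product over the HOXD-cluster product, as named in the table, was therefore 84.9-fold or more in each of the 6 libraries.

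The 5p arm also exceeded the 3p arm of the miR-10a hairpin in reads by a wide margin. The ratio was 265, 195 and 222 in sham and 279, 312 and 201 after IR, with 0.5 reads added to each arm. The groups overlapped, and the mean log2 ratio was 7.82 ± 0.22 and 8.02 ± 0.33 (SD, n = 3 each), a difference of 0.21 (exact permutation test, p = 0.4). For the miR-10b hairpin the ratio was 301, 227 and 3585 in sham and 322, 432 and 559 after IR. The highest of these comes from the library with 0 reads of miR-10b-3p and is set by the 0.5 reads added. The difference in mean log2 ratio was -0.55 (exact permutation test, p = 1) and was 0.71 without sham replicate 3.

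**Figure D3:**
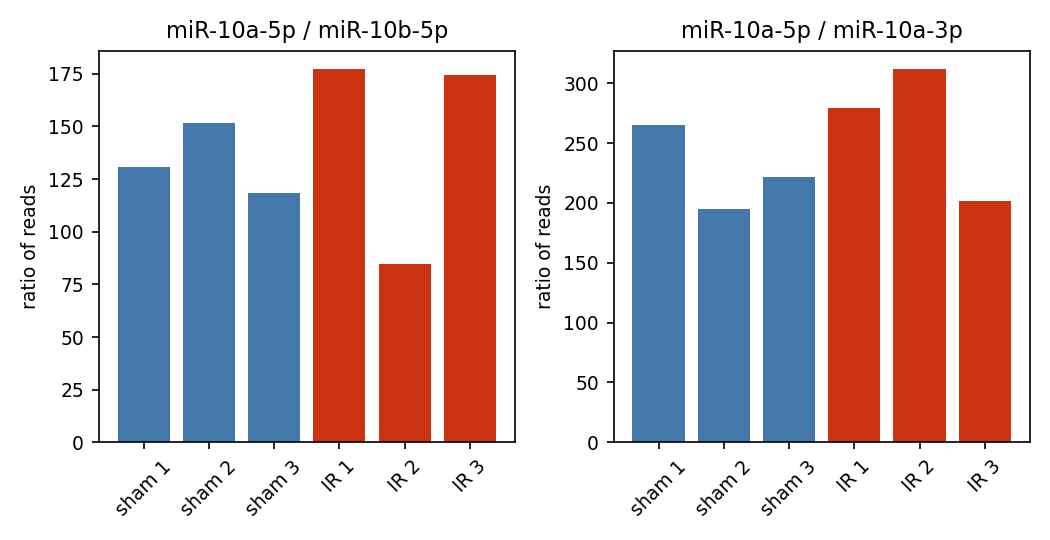
Ratio of reads (vertical axis) in each of the 3 sham (blue) and 3 IR (red) libraries for miR-10a-5p over miR-10b-5p (left) and for miR-10a-5p over miR-10a-3p (right). IR replicate 2 has the lowest value on the left, 84.9, and the highest on the right, 312.

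The wider miR-10 family holds miR-99, miR-100 and miR-125, which resemble miR-10 in sequence and whose genes lie outside the HOX clusters. They are shown to place the seeds beside each other.
miR-100-5p: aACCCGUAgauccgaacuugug
miR-99b-5p: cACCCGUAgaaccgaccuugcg
miR-125a-5p: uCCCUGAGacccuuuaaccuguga
miR-125b-5p: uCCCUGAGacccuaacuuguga
miR-100-5p and miR-99b-5p have the seed ACCCGUA, and miR-100-5p shares an uninterrupted run of 11 bases with miR-10a-5p. The miR-125 pair has the seed CCCUGAG. No miRNA of the RefSeq table other than miR-10a-5p has the seed ACCCUGU.

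Of these relatives 11 names were listed and tested. In edgeR's quasi-likelihood test 0 were called, where 10.5% of all tested miRNAs were. An unadjusted p under 0.05 was found for 0, where 26.3% had one. DESeq2, limma-voom and limma-trend also called 0. The median log2 fold change of these relatives was 0.14, beside -0.0088 over all tested miRNAs. The log2 fold change was above 0 for 9 of 11, and for 48.8% of all tested miRNAs. The other HOX-cluster family, miR-615, was in the planned list of relatives, but none of its names is among the 11. miR-99b-5p, in a gene cluster with miR-125a, was at 9404, 8922 and 8718 CPM in sham and at 11317, 10614 and 9269 CPM after IR. Its groups overlapped only through IR replicate 3, and its log2 fold change was 0.21 (standard error 0.13, 95% interval -0.084 to 0.50, adjusted p = 0.328 in edgeR's quasi-likelihood test). Its other arm, miR-99b-3p, was at 95.9, 103 and 93.1 CPM in sham and 138, 115 and 115 CPM after IR, without overlap (log2 fold change 0.33, adjusted p = 0.250). miR-99a-3p (log2 fold change 0.55) and miR-125b-1-3p (0.30) were likewise without overlap and not called. Such a separation was thus found for 3 of 11 relatives, each with IR as the higher group. Over all tested miRNAs it was found for 34.0% in either direction and for 17.2% with IR as the higher group. The abundant miR-99a-5p, miR-100-5p, miR-125a-5p and miR-125b-5p were at -0.0054, 0.15, 0.029 and -0.094, the narrowest intervals running from -0.26 to 0.32 for miR-125a-5p and from -0.40 to 0.22 for miR-125b-5p. For miR-99a-5p the sign of the log2 fold change turned with the scaling. The lesser arms miR-100-3p, miR-125a-3p and miR-125b-2-3p were at 0.038, 0.088 and 0.14.

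**Figure D4:**
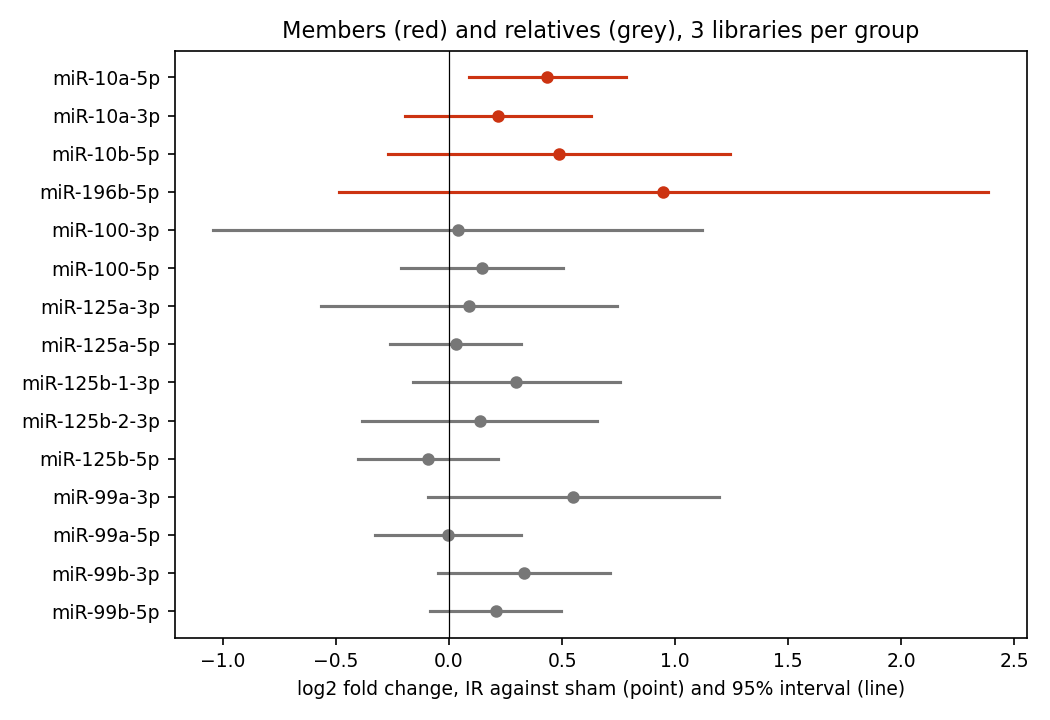
Log2 fold change of IR against sham (points, horizontal axis) with its 95% interval (lines) for the 4 tested members (red) and 11 tested relatives (grey), from 3 libraries per group. The interval of miR-10a-5p, 0.088 to 0.78, lies above 0 and the other 14 intervals include 0.

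The miRNAs whose levels ran most like those of miR-10a-5p and miR-10b-5p were named by Pearson's r of log2(CPM + 1) over the 6 libraries, as a description, since all values share libraries and scaling. miR-10a-5p ran most like miR-99b-5p (r = 0.982), followed by miR-384-5p (0.890), miR-29b-5p (0.886), miR-99b-3p (0.884) and miR-139-5p (0.876). Both arms of miR-99b, a sequence relative, were thus among the 5 names. Of these 5, miR-29b-5p and miR-139-5p had an adjusted p under 0.05, at 0.0230 and 0.0265 in the edgeR test. Over all tested miRNAs 10.5% did, and these 5 were picked for likeness to a profile without overlap between the groups. miR-10b-5p ran most like miR-222-3p (0.978), then miR-182 (0.955), miR-190a-5p (0.928), miR-877 (0.928) and miR-221-5p (0.922). Of these 5, 0 were called, where 10.5% of all tested miRNAs were. All 5 were highest in IR replicate 2, as was miR-10b-5p. This follows from how they were picked, since that library sets the profile of miR-10b-5p, and is no separate result. miR-222-3p, for instance, was at 373, 284 and 346 CPM in sham and 353, 544 and 288 CPM after IR. The lists for miR-10a-5p and miR-10b-5p had no name in common, and between miR-10a-5p and miR-10b-5p themselves r was 0.608. Between miR-10a-5p and miR-10a-3p it was 0.388.

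**Figure D5:**
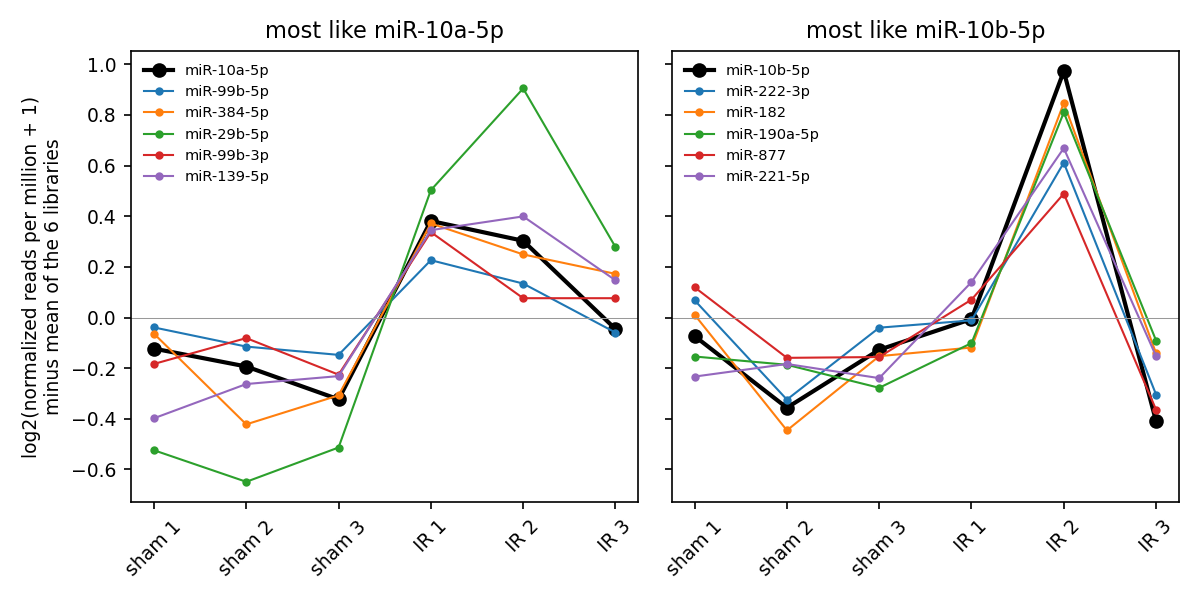
Level in each library as log2(CPM + 1) minus the mean of the 6 libraries (vertical axis) for miR-10a-5p (left, black) and miR-10b-5p (right, black) with the 5 miRNAs of highest Pearson's r (colours). Lines only join the values of a miRNA; the right-hand miRNAs all peak in IR replicate 2, and those on the left lie higher in IR replicate 1 and IR replicate 2 than in any sham library.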

How the data were processed

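Small RNA from 3 sham and 3 IR samples of rat lung was sequenced, with groups taken from the treatment label. The authors deposited whole read counts per miRNA and, beside them, TPM, which are the same counts per 1000000 miRNA reads of the table, without a length term. Per the labels Bowtie was used; the sources used here do not give the genome build, the annotation, the counter, the mismatch rule or how reads with several matches were handled. Some tested names outside the members had fitted values and mean levels identical to those of another name. Whether the same reads were counted under both names was not tested. The number of value columns that matched no sample was 0.

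The main test was run in edgeR 4.0.16 under R 4.3.3, with limma 3.58.1 and DESeq2 1.42.0 as alternatives and matplotlib 3.10.9 (Python 3.11.15) for plots. The edgeR filter filterByExpr (at least 10 reads at the median depth, 15 in total) selected the miRNAs, which were scaled by TMM (factors 0.867 to 1.06) and tested by the robust quasi-likelihood test on group alone. The standard error is the log2 fold change over the square root of F. The script was tested on simulated data with known changes. Depth was 3775663 to 11248166 reads per library, which leaves names with few reads imprecise.

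The members, the relatives, the marker lists and the rule for named miRNAs (all members, all tested relatives, the 5 most like each of miR-10a-5p and miR-10b-5p) were chosen with earlier results of these data known. Alternatives were RLE or total-count scaling, library sizes without miR-21-5p and miR-143-3p (9.66% to 24.2% and 11.0% to 16.6% of reads), no filter or 10 reads in every library, limma-trend on log2(TPM + 1), limma-voom, DESeq2, edgeR's likelihood ratio test, the replicate number as a block, miR-10a-5p and miR-10b-5p summed, and leaving out each library; the non-robust fit was added after seeing the data. 0 other names had counts within 5% or 2 reads of a member in every library, among members with a mean of at least 5 reads. The qPCR, protein and cell experiments were not analysed here.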

Additional observations from a re-analysis of the deposited data

How the results depend on the processing

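No member and no relative was called under any of the alternatives run, while the number of calls over all miRNAs went from 44 to between 0 and 75. The log2 fold change of miR-10a-5p stayed above 0 in 18 of 18 alternatives, at 0.41 to 0.48 (adjusted p 0.0839 to 0.237) and, with 1 library left out, 0.31 to 0.60 (0.0752 to 0.396, from edgeR). With 1 library left out the values were -0.023 to 0.78 for miR-10b-5p, -0.13 to 0.40 for the log2 ratio of miR-10a-5p to miR-10b-5p (below 0 without IR replicate 1, IR replicate 3 or sham replicate 3), -1.28 to 0.71 for the arm ratio of miR-10b and 0.69 to 1.89 for the log2 ratio of the summed miR-196 level (1.08 with all libraries, 1.89 without sham replicate 2). With 1 library left out, 6 relatives changed sign in at least 1 fit, at -0.095 to 0.11 for miR-100-3p, -0.0038 to 0.25 for miR-100-5p, -0.089 to 0.30 for miR-125a-3p, -0.048 to 0.14 for miR-125a-5p, -0.093 to 0.32 for miR-125b-2-3p and -0.095 to 0.095 for miR-99a-5p. miR-99a-5p was at 0.033 with total counts, 0.026 with no filter, 0.048 with 10 reads in every library and 0.015 with limma-trend, and miR-100-3p at -0.00035 with DESeq2. The causes were not tested. Of the 5 names most like miR-10a-5p, 3 were among the 5 by Spearman's rho and 3 with total counts, and for miR-10b-5p 2 and 3. Same-numbered libraries did not deviate together (r = -0.234, -0.387 and -0.183), so the numbers were not taken as pairs. With the replicate block 0 of all tested miRNAs were called, against 44, miR-10a-5p was at 0.43 (adjusted p = 0.237 from edgeR) and miR-100-3p at -0.019. miR-196b-5p rests on 3 to 17 reads a library and was at 0.46 to 1.93 with 1 library left out.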

Other observations

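The raw reads of miR-10b-5p, singled out after its values were seen, covered a narrow range. They ran from 1447 to 1957, a 1.35-fold range, while the library totals ran over a 2.98-fold range. Among the 168 tested miRNAs above 100 CPM the median range of raw reads was 3.69-fold, and 1 of them, miR-10b-5p itself, had a range this small. The smallest library, IR replicate 2, held 1513 reads of miR-10b-5p, more than the 1447 of IR replicate 1, and this is the library with the high CPM described above. Over the other 5 libraries the reads were higher in each larger library, from 1447 to 1957.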
